A study of Oryctolagus cuniculus with 18 samples.

Results

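The genes described here are 112 rabbit genes with more RNA in retina than in RPE-choroid of non-operated eyes, and with more RNA in every operated retina than in any non-operated retina. They were chosen by their measured levels among 29587 Ensembl genes. Levels are given as CPM, the counts of a gene scaled to 1000000 counts on all genes of a library. A gene was taken where the mean CPM of non-operated retina was at least 1 and the log2 ratio of that mean to the mean of non-operated RPE-choroid, with 0.5 CPM added to both, was at least 1. In addition, the lowest of the 6 operated retinas had to lie above the highest of the 3 non-operated retinas, while the lowest of the 6 operated RPE-choroid samples must not lie above the highest non-operated one. Of the 29587 genes, 13501 reached the minimum CPM and 2042 of these also reached the tissue ratio. The 112 members were 5.48% of those 2042 retina-preferring genes, and the remaining 1930 serve as the comparison below. The members were ranked by the log2 ratio of the mean of the 6 operated retinas to the mean of the non-operated retinas, again with 0.5 CPM added.

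The eyes were those of male New Zealand White rabbits, which the methods give as 4 to 6 months old when purchased. The methods do not give the age at which tissue was taken. Retina and RPE-choroid were taken from non-operated eyes and from eyes whose vitreous had been removed and replaced by poly(CEP), a thermogelling multiblock polymer, 1 month or 2 months earlier, with 3 samples, called biological replicates in the methods, in each of the 6 groups. These poly(CEP)-filled eyes had not undergone the induction of proliferative vitreoretinopathy. The study lists such eyes at 2 months as the other eye of rabbits in which the disease model was induced, and those at 1 month as eyes of separate rabbits, without naming the ones sequenced. If the sequenced eyes are those listed, time after surgery and this difference between the animals cannot be told apart in any comparison of 2 months with 1 month. Every operated eye had both the vitrectomy and the polymer, so the effect of the operation and that of the polymer cannot be told apart. The tissues were separated by hand. The labels call the second tissue retinal pigment epithelium. Whether a retina and an RPE-choroid sample of the same number came from one eye is not stated in the labels.

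The neural retina is the light-sensing layer of the eye and holds photoreceptors, the interneurons and ganglion cells behind them, and Müller glia that span its depth. The RPE is a single pigmented layer that lies against the photoreceptor outer segments, renews visual pigment and takes up shed outer segments. The choroid is the vascular bed beneath it. Which of these cells use the members is not given here, because no identifier could be paired with a gene name (0 of 112) and no list of cell type markers could be applied. For the same reason the tissue labels could not be checked against defining markers, and the genes are given by Ensembl identifier or by rank. In bulk tissue, fewer cells of a type and less RNA per cell cannot be told apart.

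Libraries of RPE-choroid stood apart from each other in retina-preferring RNA. Relative to the mean of non-operated retina, the 1930 other retina-preferring genes had a median log2 level of −1.70, −2.96 and −0.69 in non-operated RPE-choroid replicates 1, 2 and 3. The same median was −0.66, −0.44 and −1.20 at 1 month and −1.78, −1.82 and −3.06 at 2 months. Replicate 3 at 2 months and the non-operated replicate 2 were the lowest, and the 1-month replicates 1 and 2 and the non-operated replicate 3 the highest. In retina the same median stayed between −0.25 and 0.02 in all 9 samples. The main values that rest on these RPE-choroid libraries are given below with all libraries and without single ones, a set of alternatives chosen after seeing the data.

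In non-operated retina the members were mostly of modest level. Their mean ran from 1.23 to 2799 CPM with a median of 16.2 CPM, against a median of 32.4 CPM for the other retina-preferring genes. Of the 112 members, 64 had at least 10 CPM, 18 at least 100 CPM and 3 at least 1000 CPM. Their log2 ratio of retina to RPE-choroid had a median of 1.38 (1.00 to 4.38), and 13 members reached a ratio of 2 on that scale. In the operated retinas the median of the members' group means was 33.5 CPM at 1 month and 31.2 CPM at 2 months. The other retina-preferring genes had 28.2 CPM and 28.6 CPM.

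The excess in operated retina that chose the members spanned a wide range. The log2 ratio of operated to non-operated retina had a median of 0.90, with quartiles at 0.64 and 1.27 and the ends at 0.22 and 4.27. In folds this was a median of 1.87 and a range of 1.16 to 19.3. A log2 ratio of at least 1 was reached by 49 members, of at least 2 by 8 and of at least 3 by 3. The 48 members under 10 CPM in non-operated retina had a median of 1.13, the 46 between 10 and 100 CPM one of 0.78, and the 18 at 100 CPM or more one of 0.86. At the edge of the rule, the member with the smallest separation had 33.36 CPM in its lowest operated retina and 33.29 CPM in its highest non-operated retina, and the closest retina-preferring gene left out had 90.73 and 90.75 CPM. Non-overlap of this kind was not rare, since 19.2% of the 15878 genes tested in retina had all operated samples above all non-operated ones. These values are those of the rule and are given as a description. In the plot of tissue ratio against change, the members lie along the upper side of the cloud of retina-preferring genes, whose other 1930 genes had a median of −0.16.

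**Figure D1:**
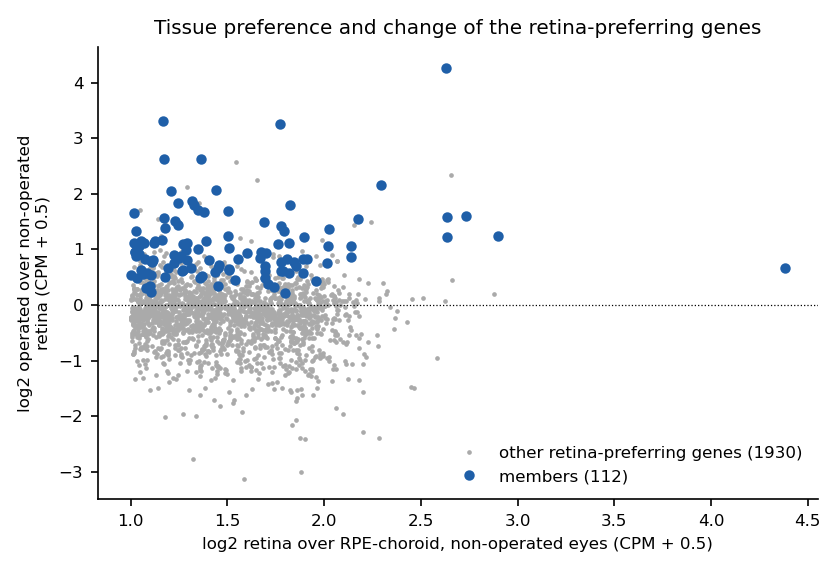
Each point is one of 2042 retina-preferring genes, with the log2 ratio of retina to RPE-choroid in non-operated eyes on the horizontal axis and the log2 ratio of the 6 operated to the 3 non-operated retinas on the vertical axis. The 112 members (blue) lie between 0.22 and 4.27 on the vertical axis and, except for 13, under 2 on the horizontal axis.

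The highest-ranked member, ENSOCUG00000006895, had 153, 123 and 106 CPM in the 3 non-operated retinas. It had 2738, 2403 and 2576 CPM at 1 month and 2807, 3330 and 1010 CPM at 2 months. All 6 operated retinas were far above the non-operated ones, with replicate 3 at 2 months below the other operated samples. The means were 128 ± 23.8 CPM, 2572 ± 167 CPM and 2382 ± 1217 CPM (SD, n = 3 each), 20.2 times the non-operated mean at 1 month and 18.7 times at 2 months. In non-operated RPE-choroid it was at 34.3, 11.8 and 14.6 CPM. It reached 1184, 1653 and 2721 CPM at 1 month, and at 2 months 535, 587 and 7.32 CPM. The RPE-choroid thus held this RNA above every non-operated sample of its own tissue in 5 of 6 operated samples, and the replicate 3 at 2 months, below all of them, is what kept the gene within the rule.

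ENSOCUG00000013057, ranked second, was a gene of low level in non-operated retina, at 3.83, 3.70 and 1.99 CPM. It had 32.0, 26.1 and 62.1 CPM at 1 month and 29.5, 33.0 and 33.2 CPM at 2 months. Its retina means were 12.6 times the non-operated mean at 1 month and 10.1 times at 2 months, and the 2 operated groups overlapped. In RPE-choroid it had 0.955, 0.443 and 2.02 CPM without operation, 31.3, 51.1 and 35.0 CPM at 1 month, and 5.42, 4.97 and 0.578 CPM at 2 months. At 1 month the RPE-choroid samples overlapped the retinas of the same month. The gene ranked 3 had the same form, with 3.29 to 3.50 CPM in non-operated retina and 18.4 to 59.9 CPM in the operated retinas.

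The members ranked 4, 30 and 108 were among the abundant RNAs of the retina and made up much of the group's total. The most abundant one after the operation, ranked 4, had a non-operated retina mean of 1421 ± 161 CPM, and means of 9714 ± 2894 CPM at 1 month and 7895 ± 3085 CPM at 2 months (SD, n = 3 each). The member ranked 30 was the highest in non-operated retina, with a mean of 2799 ± 413 CPM, and had 5642 ± 788 CPM and 7528 ± 2167 CPM at the 2 times. The member ranked 108 had 1491 ± 148 CPM in non-operated retina and 1899 ± 160 and 1874 ± 79.5 CPM in operated retina, a separation that was narrow but held in every sample. Taken anew in each library, the 3 highest members held between 47.0% and 70.3% of the counts on all 112. They were not always these 3 genes, since the member ranked 1 had a higher operated-retina mean than the one ranked 108.

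**Figure D2:**
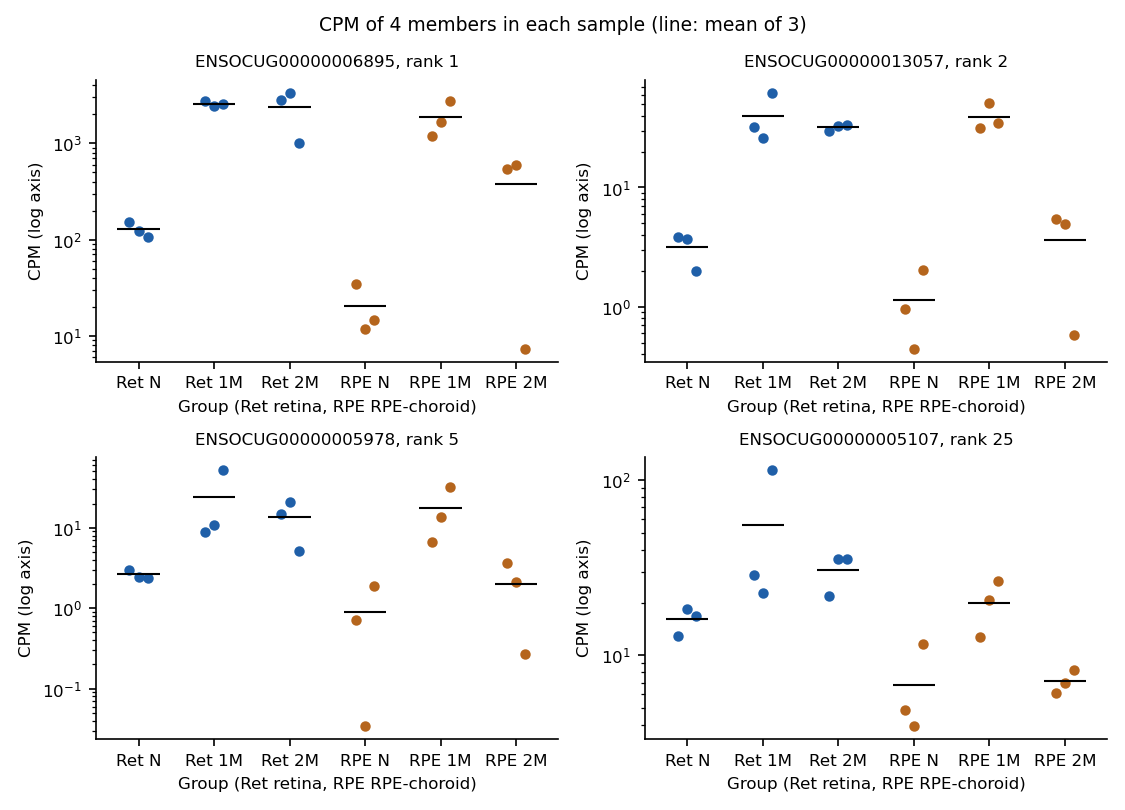
CPM on a log axis of 4 members in retina (blue) and RPE-choroid (brown), with 1 point per sample and a line at the mean of the 3 samples of each group. ENSOCUG00000006895 lies between 1010 and 3330 CPM in the 6 operated retinas against 106 to 153 CPM in the non-operated ones, and lies at 7.32 CPM in 1 of the 3 RPE-choroid samples at 2 months.

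The members together took a larger part of the retina's counts after the operation. They held 1.14%, 1.18% and 1.05% of the counts on genes in the 3 non-operated retinas. They held 2.90%, 2.51% and 3.68% at 1 month and 3.15%, 3.63% and 1.95% at 2 months. Without the 3 highest members of each library the shares were between 0.548% and 0.559% in non-operated retina and between 0.799% and 1.52% in operated retina. Sample by sample, the median log2 level of the members over the mean of non-operated retina was 0.01, 0.03 and −0.02 in non-operated retina. It was 0.79, 0.73 and 1.16 at 1 month, and 0.93, 1.07 and 0.43 at 2 months. Replicate 3 was the highest of the 1-month retinas and the lowest of the 2-month retinas.

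**Figure D3:**
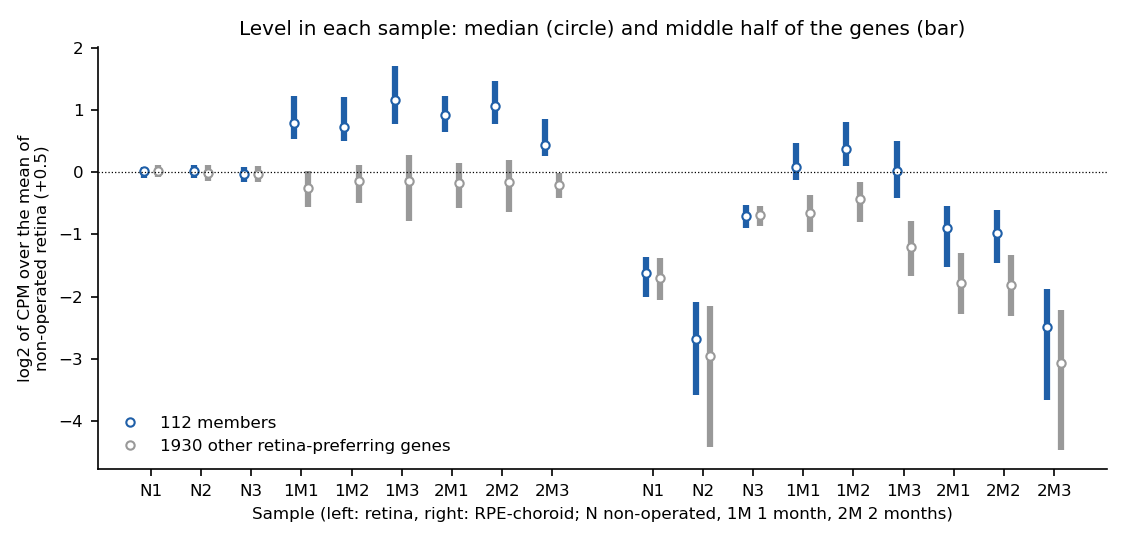
For each of the 18 samples, the circle gives the median and the bar the span between the quartiles of the log2 ratio of a gene's CPM to its mean in non-operated retina (0.5 CPM added), for the 112 members (blue) and the 1930 other retina-preferring genes (grey). In the 6 operated retinas the members' median lies between 0.43 and 1.16 and that of the other genes between −0.25 and −0.14. In RPE-choroid the members' median lies between −2.68 and 0.38 and that of the other genes between −3.06 and −0.44.

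The samples of 1 time point were not alike in how strongly they carried the members. Of the 112 members, 59 (52.7%) had their highest operated retina in replicate 3 at 1 month and 31 (27.7%) in replicate 2 at 2 months, while 0 had it in replicate 3 at 2 months. Of the other retina-preferring genes, 31.3%, 12.8% and 32.6% had theirs in the same samples, in that order. That last sample was the lowest operated retina for 69 members (61.6%), against 30.9% of the other retina-preferring genes. Another measure moved with this order. The summed level of 2937 genes that, by the same ratio turned round, preferred the RPE-choroid of non-operated eyes at least 2-fold was 46816 to 49247 CPM in the non-operated retinas. It was 77748, 72298 and 92894 CPM at 1 month and 88287, 96600 and 60462 CPM at 2 months, highest where the members were highest at each time and lowest among operated retinas in the same sample. The part of these genes' level in the members' values was not tested. Of all reads, those with several alignments made up 11.7% and 11.1% in replicates 1 and 2 at 2 months and 8.08% to 9.38% in the other 7 retinas, and their part was not tested either.

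In the fit of the 9 retina samples with edgeR, the log2 fold change against non-operated retina had a median over the members of 0.88 at 1 month and 0.74 at 2 months. It was above 0 for all 112 members at both times. At a Benjamini-Hochberg adjusted p under 0.05, 71 members were called higher at 1 month, where 10.9% of all genes tested were, and 49 at 2 months, where 8.21% were. DESeq2 called 89 and 66, where 14% and 11.4% of all genes were called higher. Since these contrasts chose the members, nothing is read from the counts. They also hung on single libraries: leaving out 1 replicate gave 31 to 55 calls at 1 month and 17 to 78 at 2 months. The highest value, 78, was reached without replicate 3 at 2 months and the lowest, 17, without replicate 2 at 2 months. The scaling of edgeR (TMM, the trimmed mean of M-values) was also computed over all 18 libraries, apart from the fit of the 9 retinas. Relative to non-operated retinas, it put the operated ones lower than plain CPM does by 0.16 log2 units at 1 month and 0.17 at 2 months. With TMM-scaled CPM the same rule gave 82 genes, and all of them were members.

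The rule did not compare 1 month with 2 months, but it required all 6 operated retinas to lie above the non-operated ones. A gene higher at only 1 of the 2 times could thus not be a member. The choice leans towards genes without a difference between the times, so nothing is read from the members' counts beside those of all genes. No member was called in retina at 2 months against 1 month by edgeR's quasi-likelihood test, where 1 of the 15878 genes tested was called higher (0.0063%) and 0 were called lower. At an unadjusted p under 0.05, 0 members were higher and 2 lower, against 1.86% and 2.17% of all genes. DESeq2 also called 0 members, where it called 0.233% of all genes higher and 0.202% lower, and at an unadjusted p under 0.05 it had 1 member higher and 2 lower, against 2.17% and 2.37% of all genes. The median log2 fold change of the members was −0.09, with 37 above 0 and 75 below, and without replicate 3 at 1 month it was 0.06, with 65 above 0 and 47 below. The side on which the median fell thus rested on that library. No member had its 3 retinas of 1 time wholly above the 3 of the other, while 4.25% of all genes tested had 2 months above 1 month and 3.62% the reverse.

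The member with the lowest fitted value at 2 months against 1 month was ENSOCUG00000005978, ranked 5. Its non-operated retinas had 3.01, 2.47 and 2.39 CPM, its 1-month retinas 8.89, 10.9 and 52.1 CPM and its 2-month retinas 14.8, 20.9 and 5.19 CPM. The groups of operated retinas overlapped, with the highest value in 1 of the 1-month samples and the lowest in 1 of the 2-month samples. The log2 fold change was −0.81 (SE 0.68, edgeR adjusted p = 1.00). For ENSOCUG00000005107, ranked 25, the next lowest, it was −0.80 (SE 0.55, edgeR adjusted p = 1.00). This gene had 12.9, 18.3 and 16.9 CPM in non-operated retina, 28.6, 22.6 and 113 CPM at 1 month and 21.7, 35.2 and 35.5 CPM at 2 months. In both genes the 1-month replicate 3 stood well above the other retinas. For the leading members the same difference was −0.14 (SE 0.34) in ENSOCUG00000006895 and −0.31 (SE 0.30) in ENSOCUG00000013057, each with an edgeR adjusted p of 1.00.

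In RPE-choroid the members mostly lay above the non-operated samples at 1 month. At 1 month, 95 of the 112 members had all 3 RPE-choroid samples above all 3 non-operated ones (84.8%), against 18.5% of the other retina-preferring genes and 17.8% of all genes tested in this tissue. Without single RPE-choroid libraries the members' count was 95 to 107, but the share of the other retina-preferring genes was 72.5% without non-operated replicate 3 and 52.0% without replicate 3 at 1 month. The mean of RPE-choroid at 1 month was above the mean of non-operated retina for 76 members (67.9%), against 6.01% of the other retina-preferring genes. Without 1-month replicate 2 the count was 66, and without 1-month replicate 3 it was 89. At 2 months, 0 members had all 3 samples above the non-operated ones, where 0.207% of the other retina-preferring genes and 12.4% of all genes did. For the 95 members above at 1 month, the condition on RPE-choroid in the rule would have barred this. Replicate 3 at 2 months was the lowest operated RPE-choroid sample for 102 members (91.1%, and 91.0% of the other retina-preferring genes), and it was at or below the highest non-operated sample for 110 of the 112 (98.2%), as it was for 99.3% of the other retina-preferring genes. Without that library, the lowest of the 5 operated samples was above the highest non-operated one for 26 members (23.2%), against 1.87% of the other retina-preferring genes and 6.57% of all genes.

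The condition on RPE-choroid in the rule removed 0 genes. All 112 retina-preferring genes that were higher in every operated retina met it. For 26 of them it was met through replicate 3 at 2 months alone, and without that library the rule gave 86 genes. The name of retina-preferring genes higher in operated retina thus fits the rule, but the condition did not set apart genes raised in retina alone. At 1 month, 95 members (84.8%) had all RPE-choroid samples above all non-operated ones, against 18.5% of the other retina-preferring genes. How much of that RNA came from adhering retina was not tested. The tissue ratio rested on single non-operated RPE-choroid libraries as well. The rule gave 61 genes without non-operated RPE-choroid replicate 2, all of them members, and 151 without replicate 3, of which 104 were members. On the retina side, leaving out replicate 3 at 2 months raised the number to 240, which held all 112 members.

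**Figure D4:**
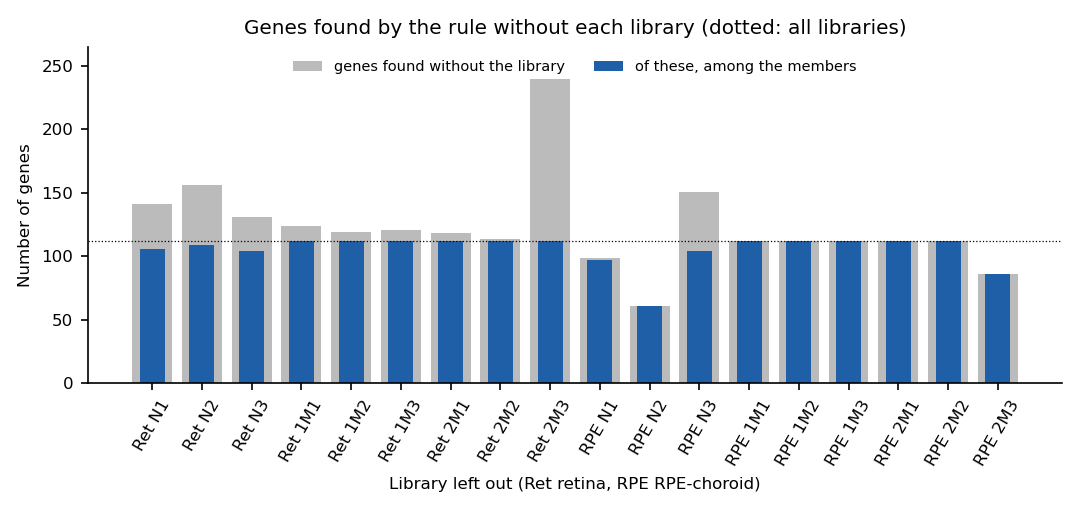
Bars give the number of genes that the rule found when each of the 18 libraries was left out (grey) and how many of these were among the 112 members (blue), with a dotted line at 112. The number runs from 61 without non-operated RPE-choroid replicate 2 to 240 without retina replicate 3 at 2 months, and is 112 without any 1-month RPE-choroid library.

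Each left-out retina was also set beside the genes found without it. Of the 124 genes found without the 1-month retina replicate 1, 112 (90.3%) had that sample above all non-operated retinas, against 19.5% of all retina-preferring genes. For the other operated retinas the share was 92.6% to 98.2%, against 25.5% to 35.4% of all retina-preferring genes, except for replicate 3 at 2 months, which lay above the non-operated retinas for 112 of the 240 genes found without it (46.7%, against 15.1%). For a non-operated retina left out, 72.4% to 82.4% of the genes had it below all operated retinas, against 14.1% to 17.4% of all retina-preferring genes. These shares are descriptions, since the other libraries of the same groups had chosen the genes. For an operated retina left out, the genes with it above all non-operated retinas are the 112 members themselves. That share therefore only restates how many genes were found. The retina-preferring genes beside it were not chosen by the other libraries, so the contrast with them is not evidence.

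Against the other retina-preferring genes of the same sample, the members were higher in operated eyes in both tissues. The median of the members minus the median of the other 1930 genes was −0.01, 0.03 and −0.00 log2 units in non-operated retina, 1.04, 0.88 and 1.30 at 1 month and 1.10, 1.23 and 0.64 at 2 months. In RPE-choroid the same difference was 0.08, 0.28 and −0.01 without operation, 0.75, 0.82 and 1.22 at 1 month and 0.89, 0.84 and 0.57 at 2 months. The 6 operated RPE-choroid samples lay above the 3 non-operated ones, replicate 3 at 2 months included. In both tissues the 1-month replicate 3 was the highest sample and the 2-month replicate 3 the lowest operated one. The retina values follow from the rule. The non-operated RPE-choroid values also entered it, through the tissue ratio, and the operated ones through the condition that removed none. The differences were not tested, because the members are no replicates of a condition. How much of the RNA in an RPE-choroid sample came from adhering retina was not tested.

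**Figure D5:**
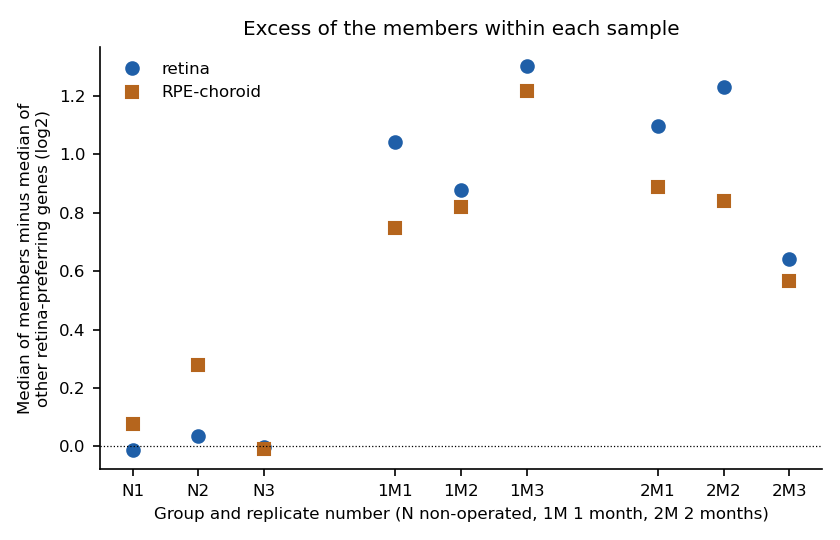
The vertical axis gives, within each sample, the median log2 level of the 112 members minus that of the 1930 other retina-preferring genes, for retina (circles) and RPE-choroid (squares) by group and replicate number. Non-operated samples lie between −0.01 and 0.28, and operated samples between 0.57 and 1.30 in both tissues.

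By gene, the log2 ratio of RPE-choroid group means to the non-operated mean (0.5 CPM added) was above 0 for 111 members at 1 month, with a median of 1.65 against 0.79 for the other retina-preferring genes. Without non-operated replicate 2 the 1-month median was 1.26 against 0.40, and without non-operated replicate 3 it was 2.28 against 1.48. At 2 months the ratio was above 0 for 72 members, with a median of 0.13 against −0.57. The 2-month count was 35, with a median of −0.17 against −0.95, without non-operated replicate 2, and 108, with a median of 0.73 against 0.09, without non-operated replicate 3. It was 93 without replicate 3 at 2 months, 53 without replicate 1 and 52 without replicate 2, with medians of 0.45, −0.03 and −0.04. At 1 month 101 members (90.2%) and at 2 months 105 (93.8%) lay above the median of the other retina-preferring genes. In the edgeR fit of the 9 RPE-choroid samples, which tested 106 of the members, 0 were called against non-operated eyes at 1 month, where 0.0123% of all genes were called higher. An unadjusted p under 0.05 was found for 51 members that were higher and 1 that was lower, against 7.82% and 13.3% of all genes. The non-operated RPE-choroid values entered the rule through the tissue ratio, which tilts this contrast upward. Of the other retina-preferring genes, 90.6% were above 0 at 1 month and 11.5% at 2 months. Nothing is therefore read from the members' counts beside those of all genes. DESeq2 called 33 members higher at 1 month (31.1%), against 2.55% of the other retina-preferring genes and 3.69% of all genes. At 2 months it called 1 member higher (0.943%), against 0.104% and 1.62%. edgeR called 0 at 2 months, with 5 higher and 0 lower at an unadjusted p under 0.05, against 6.84% and 3.85% of all genes. Without non-operated RPE-choroid replicate 3, edgeR called 32 members higher at 1 month (29.6%), against 7.45% of the other retina-preferring genes and 4.05% of all genes. Without replicate 3 at 2 months it called 1 member at 2 months. The spread between non-operated RPE-choroid replicates was wide, with a median SD of 1.04 log2 units over the members against 0.16 in non-operated retina.

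In RPE-choroid the members' median level was lower at 2 months than at 1 month, and so was that of the other retina-preferring genes. All 3 of the 1-month samples lay above all 3 of the 2-month samples for 95 members (84.8%), against 74.1% of the other retina-preferring genes and 26.4% of all genes tested. The reverse held for 1 member (0.893%), against 0.155% of the other retina-preferring genes and 20.2% of all genes. The median log2 fold change of the 106 members tested was −1.69 by edgeR, with 102 below 0, and that of the other retina-preferring genes was −1.55. No member was called by edgeR's quasi-likelihood test, nor was any of the 16322 genes. At an unadjusted p under 0.05, 38 members were lower and 1 higher, where 11.5% of all genes were lower and 18.9% higher. DESeq2 called 29 members lower (27.4%), against 20.4% of the other retina-preferring genes and 8.06% of all genes. It called 0 members and 0% of the other retina-preferring genes higher, where 12.7% of all genes were. With the replicate number as a block, edgeR called 0 members and 24 were lower at an unadjusted p under 0.05. Without replicate 3 at 2 months the median was −1.32, and 0 members were called.

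Among the named genes, the 2-month to 1-month difference in RPE-choroid was the largest in ENSOCUG00000013057, at −3.39 (SE 0.76, edgeR adjusted p = 0.0527, DESeq2 adjusted p = 0.000109). It was −2.30 (SE 1.16, edgeR adjusted p = 0.210) in ENSOCUG00000006895. In ENSOCUG00000005978, at 6.74, 13.5 and 31.9 CPM at 1 month and 3.62, 2.14 and 0.270 CPM at 2 months, it was −3.11 (SE 1.18, edgeR adjusted p = 0.129, DESeq2 adjusted p = 0.0250). ENSOCUG00000005107 had 12.7, 20.8 and 26.5 CPM at 1 month and 6.12, 6.98 and 8.28 CPM at 2 months, a difference of −1.40 (SE 0.44, edgeR adjusted p = 0.0910, DESeq2 adjusted p = 0.0170). In all 4 genes each 2-month RPE-choroid sample was below each 1-month sample. ENSOCUG00000005107 was one of the few members in which replicate 3 at 2 months was not the lowest RPE-choroid sample of its group.

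The tissues were also compared in one edgeR model of all 18 samples, as the change from 1 to 2 months in retina minus that in RPE-choroid. No member was called, while 1 of 16846 genes was called higher (0.00594%) and 23 lower (0.137%). At an unadjusted p under 0.05, 29 members were higher and 1 lower, against 8.58% and 13% of all genes. DESeq2 called 7 members higher (6.25%), against 3.94% of the other retina-preferring genes and 1.54% of all genes. With a block of time and replicate number together, which pairs the tissues by number within a time, edgeR called 0 members. At an unadjusted p under 0.05, 46 were then higher. The median difference over the members was 1.57 log2 units and that over the other retina-preferring genes was 1.55. For ENSOCUG00000013057 the difference was 3.03 (SE 0.81, edgeR adjusted p = 0.0853, DESeq2 adjusted p = 0.0110) and for ENSOCUG00000006895 it was 2.15 (SE 1.25, edgeR adjusted p = 0.318).

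The median log2 ratio of retina to RPE-choroid was 1.38 without operation, 0.61 at 1 month and 2.28 at 2 months, and that of the other retina-preferring genes was 1.48, 0.51 and 1.93. Without non-operated RPE-choroid replicate 2 the members' ratio in non-operated eyes was 1.06 and without replicate 3 it was 2.07, while without replicate 3 at 2 months the 2-month ratio was 1.89. A ratio of at least 1 was found for 20 members at 1 month (17.9%) and for 112 at 2 months, against 4.61% and 92.1% of the other retina-preferring genes. RPE-choroid means were below retina means for all 112 members at both times, as they were for 98.6% of the other retina-preferring genes at 1 month and 99.8% at 2 months.

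Few members were close to absent from RPE-choroid. Under 1 CPM in all 9 RPE-choroid samples were 5 members (4.46%, against 2.18% of the other retina-preferring genes), the highest RPE-choroid value of each lying between 0.115 and 0.731 CPM. In retina their group means ran from 1.23 to 9.92 CPM without operation, from 4.17 to 17.5 CPM at 1 month and from 4.62 to 14.5 CPM at 2 months, and the operated mean was 1.58 to 3.68 times the non-operated one. The member with the largest tissue ratio, 4.38 on the log2 scale and ranked 82, was among them. It had 11.01, 8.57 and 10.2 CPM in non-operated retina, 17.6, 11.3 and 23.7 CPM at 1 month and 11.7, 17.6 and 14.2 CPM at 2 months. In RPE-choroid it had 0 counts in all 3 non-operated samples, where 0 counts allow up to 0.112 CPM (3 counts in a library), so that the retina mean was at least 88.5-fold higher, and at most 0.221 CPM in any operated one. Its lowest operated retina, at 11.28 CPM, lay just above its highest non-operated retina, at 11.01 CPM.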

How the data were processed

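Retina and RPE-choroid RNA of 18 rabbit samples was sequenced from directional libraries. By the study's methods, reads were cleaned with Trim Galore and placed on OryCun2.0 by HISAT2, and HTSeq summed them over Ensembl genes. The authors deposited raw counts of 29587 genes, without normalisation, and 5 HTSeq summary rows, which were left out of library sizes and tests. Versions are not given in the sources used here. Library totals on genes ran from 22335005 to 33505730.

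The members, lists and tests were chosen with earlier results of these data known. Groups came from the labels. CPM was computed over all genes with 0.5 added in ratios. Each tissue's 9 samples were fitted with edgeR 4.0.16 in R 4.3.3 (TMM, two-sided quasi-likelihood test with robust dispersions, Benjamini-Hochberg adjustment over every gene tested, and filterByExpr at a minimum count of 10 and a total of 15), which had been tested on simulated data. All 112 members passed this filter in retina and 106 in RPE-choroid. DESeq2 1.42.0, the replicate block, RLE scaling, other filters and sample sets, and leaving out each library were alternatives. The named genes are the 2 ranked highest and the 2 with the most negative 2-month to 1-month change in retina. A table of 38822 RefSeq genes (mOryCun1.1) matched 0 identifiers, so gene names, lists and sequences were not used here.

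Deviations from the group means of same-numbered retina and RPE-choroid samples correlated across genes at 0.127 to 0.538 in every group, so the numbers may pair the tissues. Same-numbered 1-month and 2-month RPE-choroid samples correlated at 0.179 to 0.400. Non-operated RPE-choroid samples correlated with same-numbered 1-month ones at −0.367 to 0.061 and with 2-month ones at −0.595 to 0.311. The poly(CEP)-filled eyes that the study lists at 1 month and at 2 months are of different rabbits. A shared number is therefore not read as pairing across times. The main tests have no block, and fits with it are given beside them. In retina, same-numbered 1-month and 2-month samples correlated at −0.119 to 0.016. The numbers come from the labels. The closest replicate pair still differed beyond sampling noise (chi-square per degree of freedom 12.0). In every operated group replicates 1 and 2 were the closest pair, at 12.0 to 25.1. Their pairs with replicate 3 stood at 132 to 223. Non-operated pairs ran from 30.7 to 51.2 in retina and from 152.5 to 488 in RPE-choroid. What replicates 1 and 2 share beyond their group was not tested.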

Additional observations from a re-analysis of the deposited data

How the results depend on the processing

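The number of genes found by the rule was 112. It was 13 with a minimum tissue ratio of 2 on the log2 scale and 61 to 240 without single libraries, with 61 without non-operated RPE-choroid replicate 2 and 240 without retina replicate 3 at 2 months. With RLE-scaled CPM it was 83, with 1 CPM added 98, with a minimum of 5 CPM 77 and with no minimum 116. For RPE-choroid at 2 months against 1 month, where edgeR called 0 members, DESeq2 called 29, no filter on low counts gave 2, a fit of only the 2 groups 24, at least 10 counts in every sample 8 (of 70 tested) and a fit of all 18 samples 41. As shares called lower these were 27.4%, 1.79%, 22.6%, 11.4% and 35.7% (1 of the 41 was higher), against 20.4%, 0.518%, 22.7%, 2.64% and 28.03% of the other retina-preferring genes and 8.06%, 0.311%, 6.19%, 1.81% and 9.27% of all genes. For the difference between tissues, again 0, DESeq2 called 7 and a fit of only the 12 operated samples 10 (8.93%, against 9.14% of the other retina-preferring genes and 1.98% of all genes). Leaving out single libraries gave 0 calls in these tests and in retina at 2 months against 1 month. The cause of these differences was not tested.

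Against non-operated eyes, calls in retina were 71 at 1 month and 49 at 2 months. Without single libraries they were 31 to 55 and 17 to 78, each library moving the number by over 1.5 times except 1-month replicate 2 in the first range, and DESeq2 gave 89 and 66. In RPE-choroid, where edgeR called 0, DESeq2 called 33 at 1 month and 1 at 2 months. Without single libraries edgeR called 0 to 32 at 1 month and 0 to 1 at 2 months, with 32 only without non-operated replicate 3 and 1 only without replicate 3 at 2 months. The median log2 fold change in RPE-choroid at 1 month was 1.75, and 1.33 without non-operated replicate 2 and 2.66 without replicate 3. At 2 months it was 0.11, and −0.21 to 0.88 without single libraries, falling under 0 without non-operated replicate 2 and without replicate 1 or 2 at 2 months. When replicate numbers entered the fit as a block (replicate block), retina calls against non-operated eyes were 46 at 1 month and 29 at 2 months, where the numbers do not pair the samples. The block gave 0 calls in the other comparisons. For the difference between tissues it was made of time and replicate number together. With 3 samples a group, a difference that missed the threshold is not shown to be absent.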
